A study of Mus musculus with 10 samples.

Results

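Fc receptors read the constant part of antibodies. In the cerebral cortex of an Alzheimer's disease model, 6 genes of such receptors or related to them were examined. These were Fcgr1, Fcgr2b, Fcgr3 and Fcgrt, the signalling chain Fcer1g and the receptor-like Fcrls. They were chosen by symbol, and all 6 were found among the 53700 gene identifiers counted. RNA came from the cortex of 10 female mice at 4 months of age, 5 in each group, and was measured by QuantSeq, a method that reads the 3' end of polyadenylated transcripts. All 10 mice carried the 5XFAD transgenes, which are expressed in neurons and lead to amyloid deposits. The 5 libraries labelled 5XFAD;Neu cKO came from mice that also carried Camk2a-Cre with floxed Idol (gene symbol Mylip), which directs deletion to forebrain excitatory neurons. The 5 libraries labelled 5XFAD came from littermates whose titles read Idol, Camk2a-cre WT, without saying whether WT refers to Cre or to Idol. Whether these littermates carried floxed Idol alleles is not given in the sources used here. The comparison asked how transcripts in whole cortex differed after Idol, an E3 ubiquitin ligase for lipoprotein receptors, was deleted in neurons.

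Gene totals per library ran from 4320504 to 7466192 reads in 5XFAD and from 5148499 to 7246659 in the libraries labelled 5XFAD;Neu cKO. Replicates 1 to 5 of 5XFAD held 50, 53, 108, 50 and 45 reads of Mylip, and replicates 1 to 5 of the second group held 77, 78, 148, 112 and 50. Mylip therefore was not lower in the libraries labelled as deleted (14.8 ± 4.90 CPM there against 11.2 ± 2.27 in 5XFAD, mean ± SD, n = 5 each). Its log2 fold change was 0.39 (SE 0.25, adjusted p = 0.777 by the quasi-likelihood test of edgeR), which goes against the label. QuantSeq reads lie at the 3' end, and which part of Mylip the floxed allele removes is not given in the sources used here, so the count may not report the deletion. The second group is called cKO-labelled below. CPM are read counts scaled to library size with TMM factors, and because 1 read stands for 1 transcript end they were set side by side between genes without a length correction. This takes the 3' reads of each gene as equally well counted, which was not tested.

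The activating receptors for IgG, encoded by Fcgr1 and Fcgr3, bind antibody outside the cell and signal through a shared chain, FCER1G, whose cytoplasmic ITAM motif is phosphorylated by Src family kinases and then recruits SYK. FCGR2B binds the same antibodies but carries an inhibitory ITIM motif, and the balance between both arms sets how strongly a macrophage responds to immune complexes. In the brain, microglia are the main cells with these receptors. FCRLS is a receptor-like protein of the same family that is used as a microglial marker, and FCGRT, the heavy chain of the neonatal receptor FcRn, pairs with B2M and recycles IgG inside endothelial and myeloid cells.

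The genes lie in 3 places in the GRCm39 assembly, all on the minus strand. Fcgr2b (chr1:170786186-170804177), Fcgr3 (chr1:170878738-170893549) and Fcer1g (chr1:171057141-171062219) share a stretch of 276 kb on chromosome 1. Fcrls (chr3:87156616-87181827) and Fcgr1 (chr3:96190225-96201338) lie 9.01 Mb apart on chromosome 3, and Fcgrt is at chr7:44742412-44756819. The promoter windows of 3 members are printed, each 300 bases long and running from upstream to just past the start site that RefSeq gives. Fcgr3 is shown because it was the member whose groups did not overlap, and Fcgr1 and Fcgr2b because their levels moved most alike across libraries. The windows come from the RefSeq table for GRCm38.p6 and were placed by exact match in GRCm39, all on the minus strand, at chr1:170886923-170887222 for Fcgr3, chr3:96201236-96201535 for Fcgr1 and chr1:170803591-170803890 for Fcgr2b. The Fcgr3 and Fcgr2b windows lie within the gene spans given above, and the Fcgr1 window overlaps its span in part. Capitals mark GAGGAA, the core preferred by the myeloid ETS factor PU.1, and TTCNNNGAA, the dimer site of STAT factors, both searched on either strand. On the opposite strand the first reads TTCCTC.
Fcgr3: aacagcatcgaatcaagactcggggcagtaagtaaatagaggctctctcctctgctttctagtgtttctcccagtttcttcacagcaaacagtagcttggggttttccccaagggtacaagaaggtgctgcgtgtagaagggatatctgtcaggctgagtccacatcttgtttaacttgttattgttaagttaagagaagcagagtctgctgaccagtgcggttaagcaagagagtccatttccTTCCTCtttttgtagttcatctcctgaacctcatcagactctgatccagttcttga
Fcgr1: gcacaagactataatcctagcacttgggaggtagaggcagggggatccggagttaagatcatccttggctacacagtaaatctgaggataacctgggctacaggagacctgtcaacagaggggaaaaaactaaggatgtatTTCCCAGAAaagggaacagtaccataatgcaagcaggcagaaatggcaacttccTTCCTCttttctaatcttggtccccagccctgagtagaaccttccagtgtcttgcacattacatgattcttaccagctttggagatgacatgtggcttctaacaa
Fcgr2b: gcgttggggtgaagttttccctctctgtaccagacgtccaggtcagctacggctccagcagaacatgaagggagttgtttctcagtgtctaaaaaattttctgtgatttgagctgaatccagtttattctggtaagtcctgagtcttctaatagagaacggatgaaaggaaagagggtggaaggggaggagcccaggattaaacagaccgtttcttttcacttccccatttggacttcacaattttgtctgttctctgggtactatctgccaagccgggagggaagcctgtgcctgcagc
The Fcgr3 window, printed for the first of 2 start sites, holds TTCCTC with its edge at position -6 from that site. Counted from the second start site, the edge is at -15. The Fcgr1 window holds TTCCTC at -55 and the STAT letters at -109, and the Fcgr2b window holds neither. Fcrls also has GAGGAA, at -144, so 3 of the 6 genes have this motif on either strand, against 31.1% of the 26742 genes with a RefSeq window. TTCNNNGAA is found for 1 of the 6, against 9.6% of genes. Counted by windows, 28.1% of the 32544 hold the first motif and 8.33% the second, so the matches describe these letters and no more.

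Fcrls, Fcgrt and Fcer1g were the most abundant members and Fcgr1 the least. Mean levels over the 10 libraries were 17.9 CPM for Fcrls, 14.6 for Fcgrt, 14.1 for Fcer1g, 7.32 for Fcgr3, 3.80 for Fcgr2b and 1.68 for Fcgr1. The first 3 did not differ beyond their spread, with Fcrls above Fcgrt in 6 of 10 libraries and Fcgrt above Fcer1g in 6 of 10. Fcer1g was above Fcgr3 in 9 of 10 libraries, Fcgr3 above the inhibitory Fcgr2b in 9 of 10, and Fcgr2b above Fcgr1 in 10 of 10. The shared signalling chain was thus usually more abundant than the IgG-binding chains, and the low-affinity activating receptor more abundant than the high-affinity one.

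**Figure D1:**
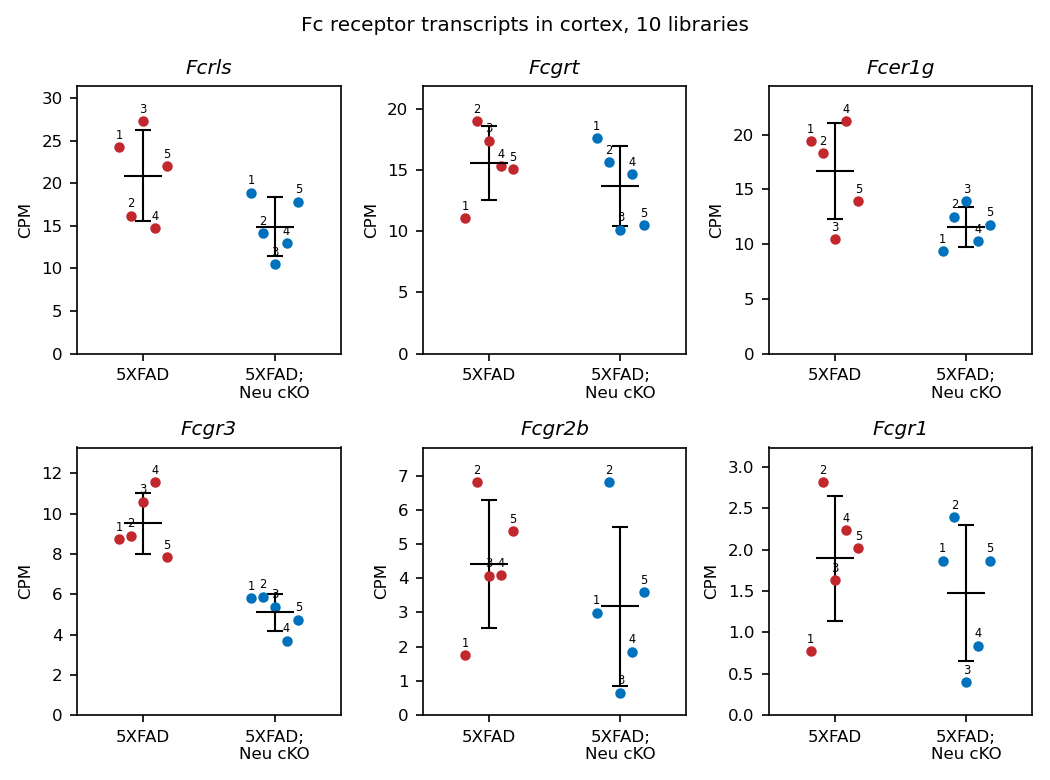
Level in CPM (vertical axes, linear and starting at 0) of the 6 Fc receptor genes in each library, with 5XFAD in red and cKO-labelled libraries (5XFAD;Neu cKO) in blue. Numbers are replicate numbers, and bars are the mean and SD of 5 libraries. The Fcgr3 groups are separate, with 7.855 CPM as the lowest 5XFAD value and 5.89 as the highest in the other group, and the groups of the other 5 genes overlap.

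All 6 members had a lower fitted level in the cKO-labelled libraries, and 0 of 6 passed an adjusted p of 0.05. Over all 19268 genes tested, 0.218% passed (0.161% lower and 0.0571% higher, or 31 and 11 genes, against 20 lower and 32 higher when libraries were scaled by their totals without TMM), and among the 7300 genes at the members' mean levels 0.0822% passed. At an unadjusted p of 0.05 or less, 3 of the 6 members were lower (Fcgr3, Fcrls and Fcer1g), against 4.01% of all genes. A fitted fold change below 0 was found for 50.1% of all genes, so the shared direction is read beside that share. The median log2 fold change was -0.49 over the members and -0.00056 over all genes. DESeq2 gave no adjusted p for any of the 6, because its filter on mean counts set them aside (it called 1.25% of the genes it adjusted), and its unadjusted p also passed 0.05 for the same 3 genes (0.00170 for Fcgr3, 0.0306 for Fcrls and 0.0316 for Fcer1g). Without TMM, or without 5XFAD replicate 1, 1 of the 6 (Fcgr3) was left at an unadjusted p under 0.05. In bulk tissue, fewer cells with these transcripts and less of them per cell cannot be told apart.

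Fcgr3, the low-affinity activating receptor for IgG, had the largest fitted difference. In 5XFAD replicates 1 to 5 it stood at 8.72, 8.92, 10.6, 11.6 and 7.855 CPM. In cKO-labelled replicates 1 to 5 it stood at 5.80, 5.89, 5.38, 3.70 and 4.74 CPM. Every library of the second group was below every library of the first, and this held for 25 of 25 pairs of libraries. Groups that did not overlap in the lower direction were seen for 0.721% of all genes. Mean Fcgr3 was 9.53 ± 1.51 CPM in 5XFAD and 5.10 ± 0.904 in the other group (SD, n = 5 each). The fold was 0.534, a log2 fold change of -0.90 with a 95% interval from -1.53 to -0.28. The exact permutation test gave p = 0.00794, the smallest that 5 against 5 libraries allow, while the adjusted p of edgeR was 0.354. Fcgr3 thus did not pass the threshold over all genes. The counts behind these levels were 35 to 78 reads per library in 5XFAD and 22 to 41 in the other group, and their spread was about what counting alone gives (variance over Poisson variance 1.22 and 0.938).

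Fcer1g, the ITAM chain that Fcgr1 and Fcgr3 need to signal, had a lower mean in the cKO-labelled libraries, with overlap between the groups. Its levels in 5XFAD replicates 1 to 5 were 19.4, 18.3, 10.5, 21.3 and 13.9 CPM. In cKO-labelled replicates 1 to 5 they were 9.35, 12.5, 13.9, 10.3 and 11.8 CPM. Replicates 1, 2 and 4 of 5XFAD were above the whole second group, replicate 5 was level with its highest library, and replicate 3 fell inside its range. The means were 16.7 ± 4.39 and 11.6 ± 1.81 CPM (SD, n = 5 each), with a log2 fold change of -0.52 (SE 0.23, 95% interval -0.98 to -0.056). Neither the adjusted p of edgeR (0.544) nor the exact permutation p (0.0635) passed 0.05. The variance of its counts was 7.31 times that of counting alone in 5XFAD and 1.77 times in the other group.

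Fcgr1, the high-affinity IgG receptor, was counted 3 to 13 times per library, so a difference of moderate size was not detectable at this depth. Replicates 1 to 5 of 5XFAD held 4, 12, 12, 12 and 9 reads, and cKO-labelled replicates 1 to 5 held 10, 13, 3, 5 and 13. The groups overlapped over most of their range, at 1.90 ± 0.759 and 1.47 ± 0.825 CPM (SD, n = 5 each). The log2 fold change was -0.36 with a 95% interval from -1.78 to 1.05, which leaves room for a large fall or a rise (adjusted p = 0.967, edgeR).

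Fcgr2b, the inhibitory receptor, varied more between mice than between groups. In 5XFAD replicates 1 to 5 it stood at 1.74, 6.80, 4.08, 4.10 and 5.39 CPM. In cKO-labelled replicates 1 to 5 it stood at 2.99, 6.81, 0.656, 1.85 and 3.59 CPM. The highest values of both groups were almost equal, and the lowest library belonged to the second group. The means were 4.42 ± 1.87 and 3.18 ± 2.32 CPM (SD, n = 5 each), and the log2 fold change was -0.48 with a 95% interval from -1.46 to 0.50 (adjusted p = 0.904, edgeR). The variance of its counts in the second group was 10.9 times that of counting alone, the widest of the 6 members.

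Fcrls, the microglial receptor-like protein, was lower in 21 of 25 pairs of libraries. Its levels were 24.2, 16.2, 27.3, 14.7 and 22.0 CPM in 5XFAD replicates 1 to 5. They were 18.9, 14.2, 10.5, 12.96 and 17.8 CPM in cKO-labelled replicates 1 to 5. Replicates 1, 3 and 5 of 5XFAD were above the whole second group, and replicates 2 and 4 fell inside its range. The means were 20.9 ± 5.33 and 14.9 ± 3.46 CPM (SD, n = 5 each), with a log2 fold change of -0.50 (SE 0.21, 95% interval -0.92 to -0.078). The adjusted p of edgeR was 0.503 and the exact permutation p was 0.0794.

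Fcgrt, the FcRn heavy chain, had the smallest fitted difference. It stood at 11.05, 19.0, 17.4, 15.3 and 15.0 CPM in 5XFAD replicates 1 to 5 and at 17.6, 15.6, 10.1, 14.6 and 10.5 CPM in cKO-labelled replicates 1 to 5. The groups overlapped over most of their range. The log2 fold change was -0.19 with a 95% interval from -0.64 to 0.26 (adjusted p = 0.929, edgeR). Its light chain partner B2m, which also serves MHC class I, stood at 107 to 195 CPM in 5XFAD and 89.4 to 118 in the other group, a log2 fold change of -0.32 (SE 0.12, adjusted p = 0.402, edgeR).

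The members' lower levels stood beside lower levels of microglial transcripts in general. All 20 genes of a microglia marker list had a log2 fold change below 0 (Sall1, at -0.02, turned to 0.093 without TMM and was above 0 in 6 of 10 fits without 1 library), 6 of them passed (Cx3cr1, Csf1r, Ctss, C1qb, C1qc and Laptm5), and their median log2 fold change was -0.56. Summed over the list, markers ran from 572 to 827 CPM in 5XFAD and from 397 to 484 CPM in the cKO-labelled libraries, with no overlap. Without 5XFAD replicate 2, or without cKO-labelled replicate 5, 3 of the 20 markers passed. Among other cells that can carry Fc receptors, 0 of 8 tested genes of border macrophages and monocytes passed (median log2 fold change 0.015), and their sum was 6.57 to 17.4 CPM in 5XFAD and 9.58 to 20.5 in the other group. Endothelial cells had 0 of 10 called, with a median of 0.025. Of 9 lymphocyte, 6 neutrophil and 6 mast cell and basophil markers, 1, 1 and 2 were counted often enough to be tested, 0 passed, and 5, 3 and 3 were at 0 in every library. Those tested were Trbc2 (428 reads in all), S100a8 (38), and Hdc and Kit (28 and 1126), named after their values were seen. Which cells these reads came from was not tested, so they do not report on those immune cells alone. Among the cells that make up most of the tissue, 0 of 10 neuron, 1 of 9 astrocyte (Gfap, lower) and 0 of 8 oligodendrocyte markers passed, with median log2 fold changes of -0.043, -0.099 and -0.28. Of these, 6 neuron, 8 astrocyte and 8 oligodendrocyte markers had a log2 fold change below 0, and 1, 3 and 5 of them were lower at an unadjusted p under 0.05 by the edgeR fit. At the same unadjusted p, 2 neuron markers were higher, and no astrocyte or oligodendrocyte marker was. The part of any of these lists in the members' levels was not tested.

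**Figure D2:**
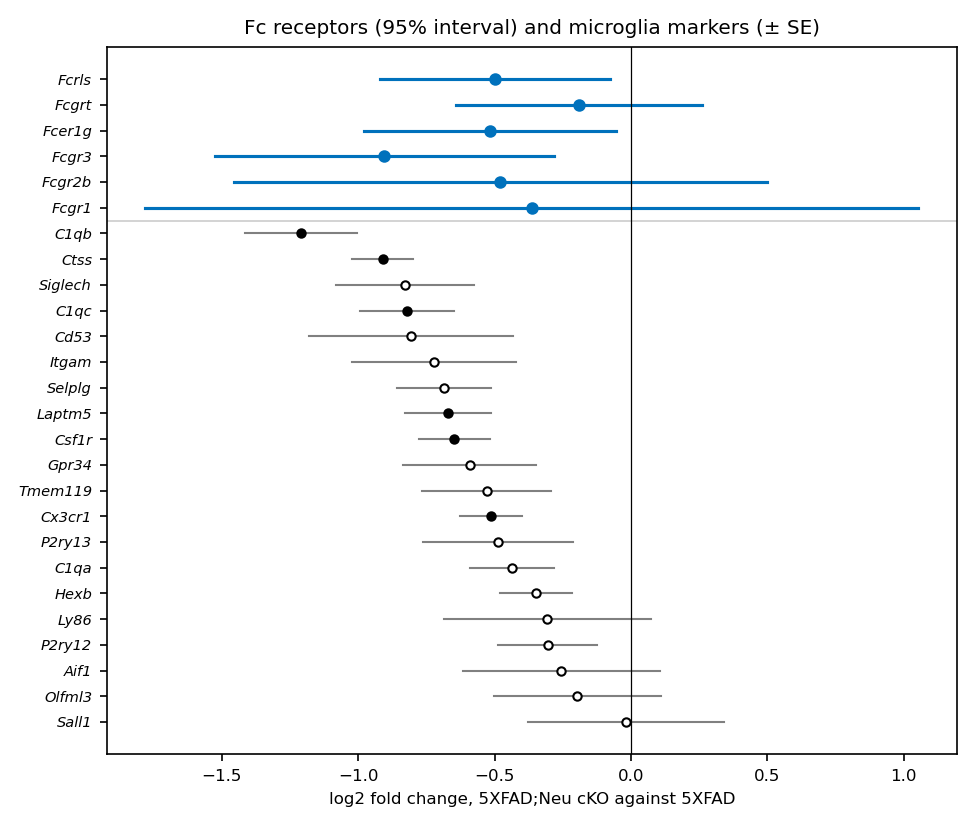
Log2 fold change of cKO-labelled libraries (5XFAD;Neu cKO) against 5XFAD (horizontal axis) for the 6 Fc receptor genes with 95% intervals (blue) and the 20 microglia markers with 1 SE (grey). Filled black points are markers with an adjusted p under 0.05 by edgeR. All values shown are below 0 (Sall1 is above 0 without TMM), and Fcgr3 at -0.90 sits among the markers with the larger differences while Fcgrt at -0.19 sits among the smallest.

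Set against the microglia markers, no member differed beyond its spread between libraries. For this, reads of each member were divided by the summed reads of the 20 markers in the same library, so that library size cancels. Fcgr3 had a median of 12.7 reads per 1000 marker reads in 5XFAD and 12.1 in the cKO-labelled libraries, a log2 difference of -0.28 (SE 0.20, exact permutation p = 0.238). Fcer1g had medians of 22.7 and 26.0, with a log2 difference of 0.12 (SE 0.16, exact permutation p = 0.484). Fcrls had medians of 29.4 in both groups and a log2 difference of 0.13 (SE 0.30, exact permutation p = 0.643). With 1 library left out the log2 difference ran from -0.37 to -0.16 for Fcgr3 (-0.16 without cKO-labelled replicate 4) and between 0.038 and 0.22 for Fcer1g (5XFAD replicates 3 and 4 left out, respectively). Fcgrt, like Fcer1g and Fcrls, had a higher mean per marker read in the cKO-labelled libraries, from a median of 23.6 to 31.2 reads per 1000 (log2 difference 0.42, SE 0.24, exact permutation p = 0.103). Fcgr1 and Fcgr2b had log2 differences of 0.13 (SE 0.57) and -0.082 (SE 0.66), too imprecise to place. The direction changed when single libraries were left out for Fcrls (-0.0013 without 5XFAD replicate 2), Fcgr1 (-0.20 without 5XFAD replicate 1) and Fcgr2b (0.38 without cKO-labelled replicate 3), and Fcgrt without cKO-labelled replicate 3 had a log2 difference of 0.53 (exact permutation p = 0.0397). All 6 comparisons overlapped between groups, and the smallest p after adjustment over the 12 ratios compared in all was 0.571.

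**Figure D3:**
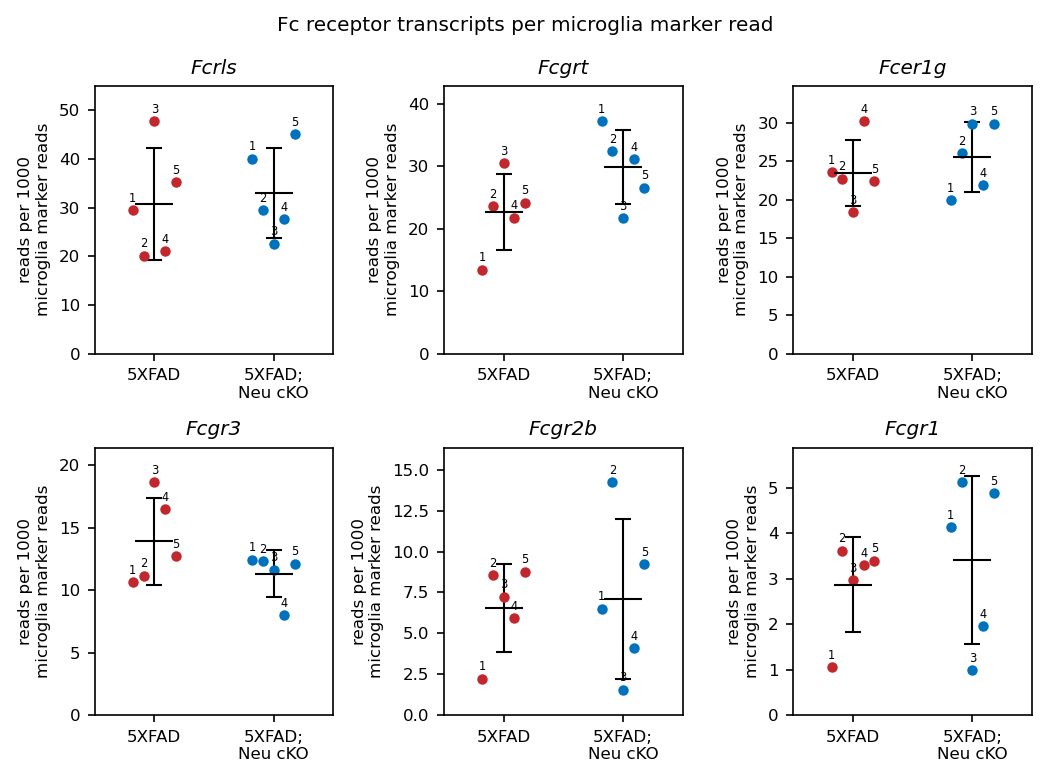
Reads of each Fc receptor gene per 1000 reads of the 20 summed microglia markers (vertical axes, linear and starting at 0) in each library, with 5XFAD in red and cKO-labelled libraries (5XFAD;Neu cKO) in blue. Numbers are replicate numbers, and bars are the mean and SD of 5 libraries. The groups overlap for all 6 genes, and Fcgr3 of cKO-labelled replicate 4, at 8.02, lies below the other 4 libraries of its group.

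The arms of the receptor system were also set against each other within libraries. The count of activating Fcgr3 over inhibitory Fcgr2b had a median of 2.57 in 5XFAD and 1.91 in the cKO-labelled libraries, with ranges of 1.31 to 4.79 and 0.867 to 7.55. The log2 difference was -0.20 (SE 0.63, exact permutation p = 0.770), so the error leaves room for a large shift of this balance either way. The signalling chain Fcer1g over the summed IgG-binding chains Fcgr1 and Fcgr3 had medians of 1.54 and 1.77 (log2 difference 0.32, SE 0.27, exact permutation p = 0.302). The ratio of Fcgr1 to Fcgr2b was the steadiest, with medians of 0.424 and 0.529, a range of 0.360 to 0.636 over all 10 libraries, and a log2 difference of 0.21 (SE 0.18, exact permutation p = 0.270). Fcgrt over Fcer1g and Fcrls over Fcer1g gave log2 differences of 0.30 (SE 0.36) and 0.011 (SE 0.41), with exact permutation p = 0.421 and 0.976.

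Fcer1g was then compared with Tyrobp, which encodes DAP12, the other ITAM adaptor chain of microglia. Tyrobp passed over all genes, at 35.9 ± 10.8 CPM in 5XFAD and 16.8 ± 4.21 in the cKO-labelled libraries (SD, n = 5 each, log2 fold change -1.10, adjusted p = 0.000564 by edgeR), and its groups did not overlap. The ratio of Tyrobp to Fcer1g was 2.41, 2.57, 2.47, 1.62 and 1.80 in 5XFAD replicates 1 to 5. It was 2.11, 1.80, 1.07, 1.23 and 1.21 in cKO-labelled replicates 1 to 5. Replicates 1 and 2 of the second group fell inside the range of the first, and the log2 difference was -0.58 (SE 0.23, exact permutation p = 0.0476 before and 0.571 after adjustment over 12 ratios). The difference between the 2 adaptor chains therefore did not hold after adjustment, and leaving out 5XFAD replicate 1, 2 or 3 or cKO-labelled replicate 3, 4 or 5 also ended the unadjusted call (exact permutation p = 0.0794 each).

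Across libraries, Fcgr1 and Fcgr2b varied together more closely than either did with any other gene. This pair was singled out after its values were seen. Both were lowest in 5XFAD replicate 1 and in cKO-labelled replicates 3 and 4, and both were highest in replicate 2 of each group. Likeness was measured as the root-mean-square difference of log2 CPM, centred and scaled for each gene over the 10 libraries, so that a smaller value means a closer profile. Between Fcgr1 and Fcgr2b it was 0.261, the smallest for either gene among 19267 others. The 2150 genes with mean levels between these 2 had a median of 0.336 to their own nearest gene, with 0.241 at the lowest 5%, so a nearest gene this close is not rare. At 3 to 37 reads per library, these profiles rest on few counts. The distance between other members was larger. Fcgrt stood at 0.752 from Fcgr1 and 0.751 from Fcgr2b, rank 267 and rank 279 among the 19267 other genes by closeness to each. Fcer1g and Fcgr3 differed by 0.834, with Fcgr3 at rank 569 for Fcer1g. Fcgr3 and Fcrls differed by 0.929, with Fcrls at rank 1354 for Fcgr3, and Fcer1g and Fcrls by 1.37, with Fcrls at rank 10464 for Fcer1g.

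**Figure D4:**
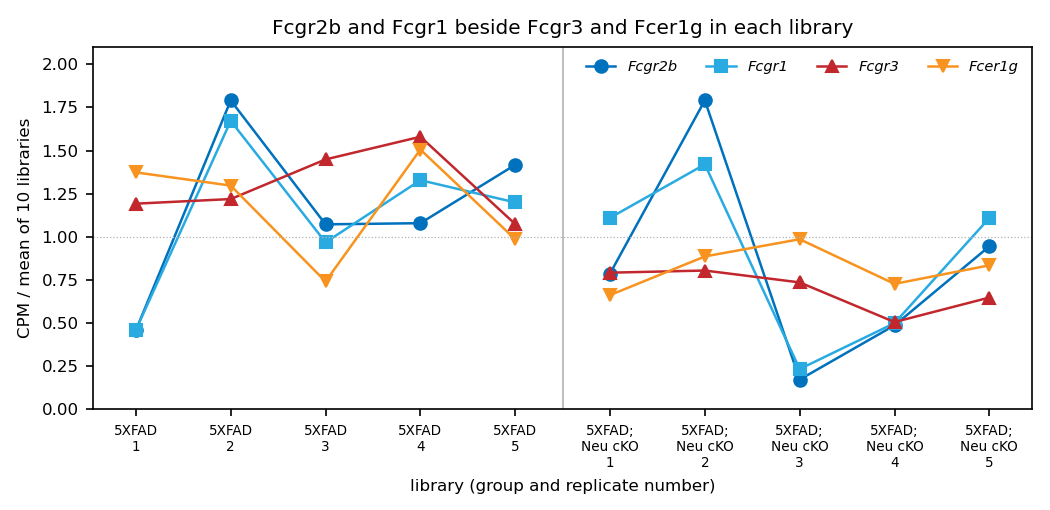
Level of Fcgr2b, Fcgr1, Fcgr3 and Fcer1g in each library (horizontal axis, group and replicate number) as a share of the gene's own mean over the 10 libraries (vertical axis, linear). Fcgr2b and Fcgr1 have their low points in 5XFAD replicate 1 and cKO-labelled replicates 3 and 4, whereas Fcgr3 is above its mean in 5 of 5 5XFAD libraries and below it in 5 of 5 of the others. Lines join libraries for reading only, since replicates have no order.

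For the 4 members with a mean of at least 5 CPM, the nearest profiles among 11065 genes at that level belonged to genes outside the receptor family. Fcer1g was nearest to Ctsz, a lysosomal cysteine protease (0.373), then to Copz1, a subunit of the COPI vesicle coat (0.377), and Grb10, an adaptor of receptor tyrosine kinases (0.407). Fcgr3 was nearest to B230112I24Rik (0.369), Map4k5, a kinase (0.403), and Specc1 (0.432). Fcrls was nearest to Plxna4, a semaphorin receptor (0.333), Ydjc (0.376) and Elac2, a tRNA-processing nuclease (0.469). Fcgrt was nearest to Glg1, a Golgi protein (0.459), Ptpru, a receptor phosphatase (0.473), and Add2, a cytoskeletal adducin (0.482). For genes at this level the median distance to the nearest gene was 0.356 (5% to 95%, 0.243 to 0.448), so the nearest profile to Fcgrt lay beyond that range and those of the other 3 lay within it.

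The genes that relay or restrain the receptor signal were split in direction, and none passed by edgeR. Of 24 genes that relay activating ITAM signals, 22 were tested and 0 passed (2 at an unadjusted p under 0.05), with 15 lower, 7 higher and a median log2 fold change of -0.079. Grb2 and Arpc1b, the first a general adaptor and the second a subunit of the actin-nucleating Arp2/3 complex, were the most abundant, with log2 fold changes of 0.11 (SE 0.10) and -0.46 (SE 0.23). The 2 genes of this list at an unadjusted p under 0.05 by the edgeR fit were Lyn, a Src family kinase that phosphorylates ITAMs (log2 fold change -0.59, SE 0.27), and Vav1, an exchange factor for Rac (log2 fold change -1.94, SE 0.86), both named after their values were seen. Syk, the kinase that docks on FCER1G, had 2.51 ± 0.635 CPM in 5XFAD and 1.40 ± 1.23 in the other group (SD, n = 5 each, log2 fold change -0.84, SE 0.66, adjusted p = 0.864 by edgeR) and was likewise named afterwards. Vav3, another exchange factor for Rac, lay in the other direction, at 7.61 ± 1.23 CPM in 5XFAD and 10.99 ± 1.39 in the other group (SD, n = 5 each, log2 fold change 0.53, SE 0.27, adjusted p = 0.655 by edgeR), and was named afterwards as the gene of this list with the smallest exact permutation p (0.0159, unadjusted). Of 17 inhibitory genes, 16 were tested and 0 passed, with 7 lower, 9 higher and a median of 0.036. The 1 at an unadjusted p under 0.05 was Siglech (log2 fold change -0.83, SE 0.25, named after its values were seen), which is also in the microglia marker list and is known to signal through DAP12 rather than an inhibitory motif. The most abundant of the list, Sirpa, the inhibitory receptor for CD47, and Cbl, a ubiquitin ligase that ends receptor signalling, had log2 fold changes of 0.04 (SE 0.089) and 0.17 (SE 0.098). Many genes of both lists are also used by neurons and other cells, so in cortex they do not report on microglia alone.

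Other receptors that pair with FCER1G and other antibody receptors were nearly absent. Of the remaining 13 Fc receptor genes, 7 were at 0 in all 10 libraries and Trim21, the cytosolic antibody receptor, was the one counted often enough to be tested (44 reads in all, log2 fold change -0.63, SE 1.14). Fcgr4, the activating receptor for IgG2, had 8 reads in all, of which 1 came from 5XFAD, so no difference was detectable at this depth. Of 9 genes listed with FCER1G as partner or sister chains, 3 were tested, Tyrobp among them, and 4 were at 0 in every library, including Clec4e and Clec4d, whose receptors use FCER1G to sense microbes and dead cells. Transcripts of the ligands were mostly scarce. Of 12 antibody chain genes 5 were tested and 0 passed, Ighm, the IgM heavy chain, was the most abundant and near the level of Fcer1g, at 12.6 ± 4.20 and 13.9 ± 2.63 CPM (SD, n = 5 each), and Jchain, which joins IgM and IgA polymers, had 45 reads in 7 libraries. Ighg2c, the most counted IgG heavy chain, had 48 reads in all. These are transcripts of antibody made in the tissue or in cells within it and do not measure antibody protein.

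The genes around the members showed no shared direction. Within 200 kb of the members, 68 genes other than the members were tested, of which 32 were lower, 36 were higher and 0 passed, with a median log2 fold change of 0.038. Around the 3 members on chromosome 1 there were 26 such genes, with a median of -0.020. Fcgr2b and Fcgr3 are close paralogs, but no stretch of 50 bases from the last 400 bases of any member's coding transcripts occurs in a transcript of another gene, so their 3' reads can be told apart. A noncoding gene of a later annotation, Gm71631, spans Fcer1g on the same strand and is not among the identifiers counted here. Its transcripts hold none of these stretches of the Fcer1g 3' end. Whether its reads fall in other parts of Fcer1g was not tested.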

How the data were processed

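Poly(A) RNA from cortex was sequenced as single-end QuantSeq FWD libraries. The authors aligned trimmed reads to GRCm39 with STAR (2.7.3a) and deposited raw read counts per Ensembl gene from HTSeq (0.9.1, per the labels' processing notes), 1 table per library, before any normalization. Rows without a gene (31.3% to 39.9% unassigned and 0.428% to 0.467% ambiguous reads, as a share of gene reads and these rows together) were left out. Gene symbols and positions came from GENCODE M39, a later annotation, in which Fcrls is named Fcrl2. The gene was matched through its RefSeq promoter. 52610 of 53700 identifiers had a symbol.

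Genes with more than 10 reads in all (19268) were tested with edgeR (4.0.16, quasi-likelihood, TMM, 1 factor for the label) in R (4.3.3), with Benjamini-Hochberg adjustment over all of them and a threshold of 0.05. edgeR replaced the DESeq2 of the study as the main test, and DESeq2 (1.42.0) was an alternative. The common biological coefficient of variation was 0.281. Intervals are 95% and follow from the quasi-likelihood F. Ratios used 0.5 added reads and a two-sided exact permutation test over 252 relabellings (p at least 0.00794). Log2 CPM for likeness used a prior count of 2. The test scripts were checked on simulated data.

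Replicates were taken as separate mice, and no pair within a group was a duplicate (chi-square per degree of freedom at least 5.70 over the 20 pairs). The members and all 15 other gene lists were chosen with earlier results of these data known. The genes named are the 6 members, Mylip, the called genes and otherwise the 2 most abundant of each list that bears on Fc receptors, called microglia markers, and the 3 genes most like each member. No protein sequence was used. With 4320504 to 7466192 gene reads per library, counting error bears most on Fcgr1, at 3 to 13 reads per library.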

Additional observations from a re-analysis of the deposited data

Results flagged for a closer look

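Each of the 6 genes was searched for a library that stood apart from the other 4 of its group, on the CPM scale and per 1000 microglia marker reads, which made 24 groups of 5 libraries. Chance sets apart a library in about 1 of 20 such groups. Fcgr1 in 5XFAD replicate 1 was 1.05 reads per 1000 marker reads, while the other 4 libraries ran from 2.97 to 3.62. The gap was 0.745 of the group's range, against a critical value of 0.71 (Dixon), and rests on 4 reads of Fcgr1. Fcgr3 in 5XFAD;Neu cKO replicate 4 was 8.02 reads per 1000 marker reads, while the other 4 ran from 11.6 to 12.4, a gap of 0.820 of the range, resting on 22 reads. The cause of either was not tested.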

How the results depend on the processing

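Of the 6 members, 0 passed an adjusted p of 0.05 in 17 alternative fits (DESeq2 gave no adjusted p for them), and no log2 fold change of a member changed sign. With 1 library left out these ran from -0.96 to -0.21 for Fcgr2b (without 5XFAD;Neu cKO replicates 2 and 3), -0.60 to -0.11 for Fcgr1 (the same 2 libraries) and -0.30 to -0.097 for Fcgrt (without 5XFAD;Neu cKO replicates 1 and 3). The number of genes called was 42, and was 73 with DESeq2, 103 with no filter on low counts, 112 with the replicate block and 26 to 72 with 1 library left out (26 without 5XFAD replicate 2, 27 without 5XFAD;Neu cKO replicate 4 or 5, 72 without 5XFAD;Neu cKO replicate 1). The members at an unadjusted p under 0.05 were 3, and 1 without TMM and 1 to 3 with 1 library left out. TMM moved the median of all genes by 0.087 on the log2 scale. Neuron markers called were 0, and 1 with DESeq2, without TMM and with the block. Oligodendrocyte markers called were 0, and 2 with no filter and with the block, and 0 to 2 with 1 library left out. Microglia markers called were 6, and 3 to 7 with 1 library left out.

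With 1 library left out, log2 differences of ratios per microglia marker read ran from -0.20 to 0.52 for Fcgr1, -0.43 to 0.38 for Fcgr2b, -0.0013 to 0.31 for Fcrls, -0.37 to -0.16 for Fcgr3, 0.038 to 0.22 for Fcer1g and 0.24 to 0.54 for Fcgrt. Those between genes ran from -0.68 to 0.099 for Fcgr3 to Fcgr2b, -0.20 to 0.27 for Fcrls to Fcer1g, 0.13 to 0.45 for Fcer1g to Fcgr1 and Fcgr3, 0.12 to 0.50 for Fcgrt to Fcer1g, 0.14 to 0.34 for Fcgr1 to Fcgr2b and -0.72 to -0.47 for Tyrobp to Fcer1g. Same-numbered libraries did not deviate together (correlations of -0.054 to 0.021), so the labels' replicate numbers were not treated as pairs. With the replicate block, Tyrobp to Fcer1g (-0.58) and the microglia marker level (-0.61) had an exact permutation p of 0.0625, the smallest that 5 pairs allow. The cause of these changes was not tested. Depth limits Fcgr1, at 3 to 13 reads per library. For Fcgr2b, the variance of counts was 3.87 (5XFAD) and 10.9 (5XFAD;Neu cKO) times that of counting alone.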
